A study of Mus musculus with 24 samples.

Results

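Candidate aminoglycoside entry genes are the genes for the proteins through which gentamicin has been proposed to reach the inside of hair cells and kidney tubule cells. The 6 names were looked up in the table of read counts by their Entrez identifiers and all 6 were found among its 24454 genes: Lrp2 (megalin), Cubn (cubilin), Amn (amnionless), Trpv1, Trpv4 and Trpa1. Organs of Corti (OCs) from C57BL/6N mice of both sexes at postnatal day 5 were explanted and rested in medium for 24 h. For the next 6 or 24 h they received no drug (CTRL), gentamicin at 50 μM (GM), pioglitazone at 10 μM (PIO) or the pair of drugs together (PIO+GM). Gentamicin is an aminoglycoside antibiotic that is toxic to hair cells, and pioglitazone activates PPAR-γ, a nuclear receptor. Each of the 8 groups had 3 libraries, each from 6 pooled OCs, and the groups of a time point share their CTRL libraries. The study's methods describe separate wells and repeated treatments but not whether the repeats came from different litters or days, and the labels do not say either, so the p-values measure the spread between these libraries, which may be technical.

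Megalin and cubilin are large endocytic receptors that bind a wide range of filtered proteins and vitamins, and megalin also binds aminoglycosides. Cubilin has no membrane anchor of its own and reaches the cell surface with amnionless, and clathrin adaptors such as Dab2 carry the receptors inward. In the kidney proximal tubule these receptors take up gentamicin. In the cochlea megalin is best known from the marginal cells of the stria vascularis and from Reissner's membrane rather than from hair cells. TRPV1, TRPV4 and TRPA1 are non-selective cation channels of the transient receptor potential (TRP) family that respond to heat, osmotic stretch or irritants, and they have been discussed as pores for aminoglycosides beside the mechanotransduction channel of the hair bundle.

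The 6 genes lie apart in the genome. On build GRCm38 (mm10) Lrp2 occupies chromosome 2 from 69424335 to 69586029 and Cubn the same chromosome from 13276338 to 13491876. Amn lies on chromosome 12 from 111271096 to 111276426, Trpv1 on chromosome 11 from 73234149 to 73261322, Trpv4 on chromosome 5 from 114622152 to 114658435 and Trpa1 on chromosome 1 from 14872644 to 14918862. Exons of Cubn shared 368 bases (2.46%) with a transcript on the other strand, Gm13270, in the GENCODE annotation, and the other 5 genes shared no exon base with another gene. Whether the counting used the strand is not given in the sources used here.

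Promoter sequences, from 250 bases before to 50 bases after the RefSeq start site on GRCm38.p6, were found for 5 of the 6 genes, and those of the receptors Lrp2 and Cubn and of the channel Trpv4 are shown because they are the 3 members with most reads. Capitals mark the GC box, GGGCGG. It was searched on both strands with 4 other motifs, none of which was found in these 3 windows. They were the half-site of nuclear receptors, written AGGTCA, the box for NF-Y, written CCAAT, the TATA box, written TATAAA, and the E-box, written CACGTG. The sequences run 5′ to 3′ on the strand of the gene.
Lrp2, chr2:69585980-69586279, minus strand: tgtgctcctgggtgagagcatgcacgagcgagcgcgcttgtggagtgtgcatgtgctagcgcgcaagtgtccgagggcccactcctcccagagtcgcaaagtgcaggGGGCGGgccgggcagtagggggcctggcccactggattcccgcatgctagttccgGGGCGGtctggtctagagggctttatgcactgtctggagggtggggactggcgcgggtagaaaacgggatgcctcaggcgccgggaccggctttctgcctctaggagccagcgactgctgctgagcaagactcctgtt
Cubn, chr2:13491827-13492126, minus strand: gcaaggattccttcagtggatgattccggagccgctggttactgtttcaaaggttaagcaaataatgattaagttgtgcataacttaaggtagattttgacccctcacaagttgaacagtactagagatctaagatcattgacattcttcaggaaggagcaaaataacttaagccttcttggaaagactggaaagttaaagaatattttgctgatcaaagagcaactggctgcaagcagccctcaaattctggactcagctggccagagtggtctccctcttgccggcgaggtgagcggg
Trpv4, chr5:114658372-114658671, minus strand: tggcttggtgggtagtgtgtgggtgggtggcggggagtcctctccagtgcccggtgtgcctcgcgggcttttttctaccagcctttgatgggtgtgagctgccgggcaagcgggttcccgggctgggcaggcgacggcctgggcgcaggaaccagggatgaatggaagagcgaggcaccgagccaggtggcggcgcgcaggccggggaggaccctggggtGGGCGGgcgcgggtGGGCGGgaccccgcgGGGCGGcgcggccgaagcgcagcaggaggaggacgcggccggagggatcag
The Lrp2 window held 2 GC boxes, the first starting at position -143 and the second at -88 from the start site, and the Trpv4 window held 3. The Cubn window held none of the 5 motifs, at a G+C content of 44.3% against 65% for Lrp2 and 73% for Trpv4. Over the 32851 promoters of the table the median G+C content was 52.7%, 35.7% held the GC box, 16.3% the half-site, 37.4% the NF-Y box, 13.6% the TATA box and 7.15% the E-box. The half-site was in none of the 5 windows of the members. A match or its absence is a statement on these letters only.

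The levels of the 6 genes, compared per length as RPKM, the read count scaled to exon length and library total, over all 24 libraries, differed widely. Lrp2 was highest with 35.9 ± 8.25 RPKM (SD, n = 24), above 92.6% of all genes with a count. Trpv4 followed with 12.6 ± 3.80 RPKM and Cubn with 1.87 ± 0.547 RPKM. The lowest 3 were Trpa1 with 0.489 ± 0.329 RPKM, Trpv1 with 0.259 ± 0.185 RPKM and Amn with 0.208 ± 0.104 RPKM, with ranges over libraries that overlapped. No test between genes was made. Lrp2, Trpv4 and Cubn did not overlap in any library, the lowest library of Lrp2 being at 22.65 RPKM and the highest of Trpv4 at 22.27 RPKM, while the highest of Cubn was at 3.01 RPKM and the lowest of Trpv4 at 6.36 RPKM.

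The libraries held 7211357 to 15548856 counts each (median 12538495), so that 3 counts, taken as the floor, stood for 0.193 to 0.416 CPM, the read count scaled to the library total. This floor and the counting intervals below cover counting error only. Counts per library ran from 4162 to 12681 for Lrp2, from 194 to 894 for Trpv4 and from 129 to 458 for Cubn. Trpa1 had 6 to 92 counts, Trpv1 1 to 39 and Amn 0 to 9. In all, 5 members passed the filter on low counts and were tested, and Amn did not pass. The shallowest library, PIO+GM replicate 3 at 6 h, also had the highest summed level of olfactory and vomeronasal receptor genes, 270 CPM against 38.9 to 211 CPM in the other 23 libraries.

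**Figure D1:**
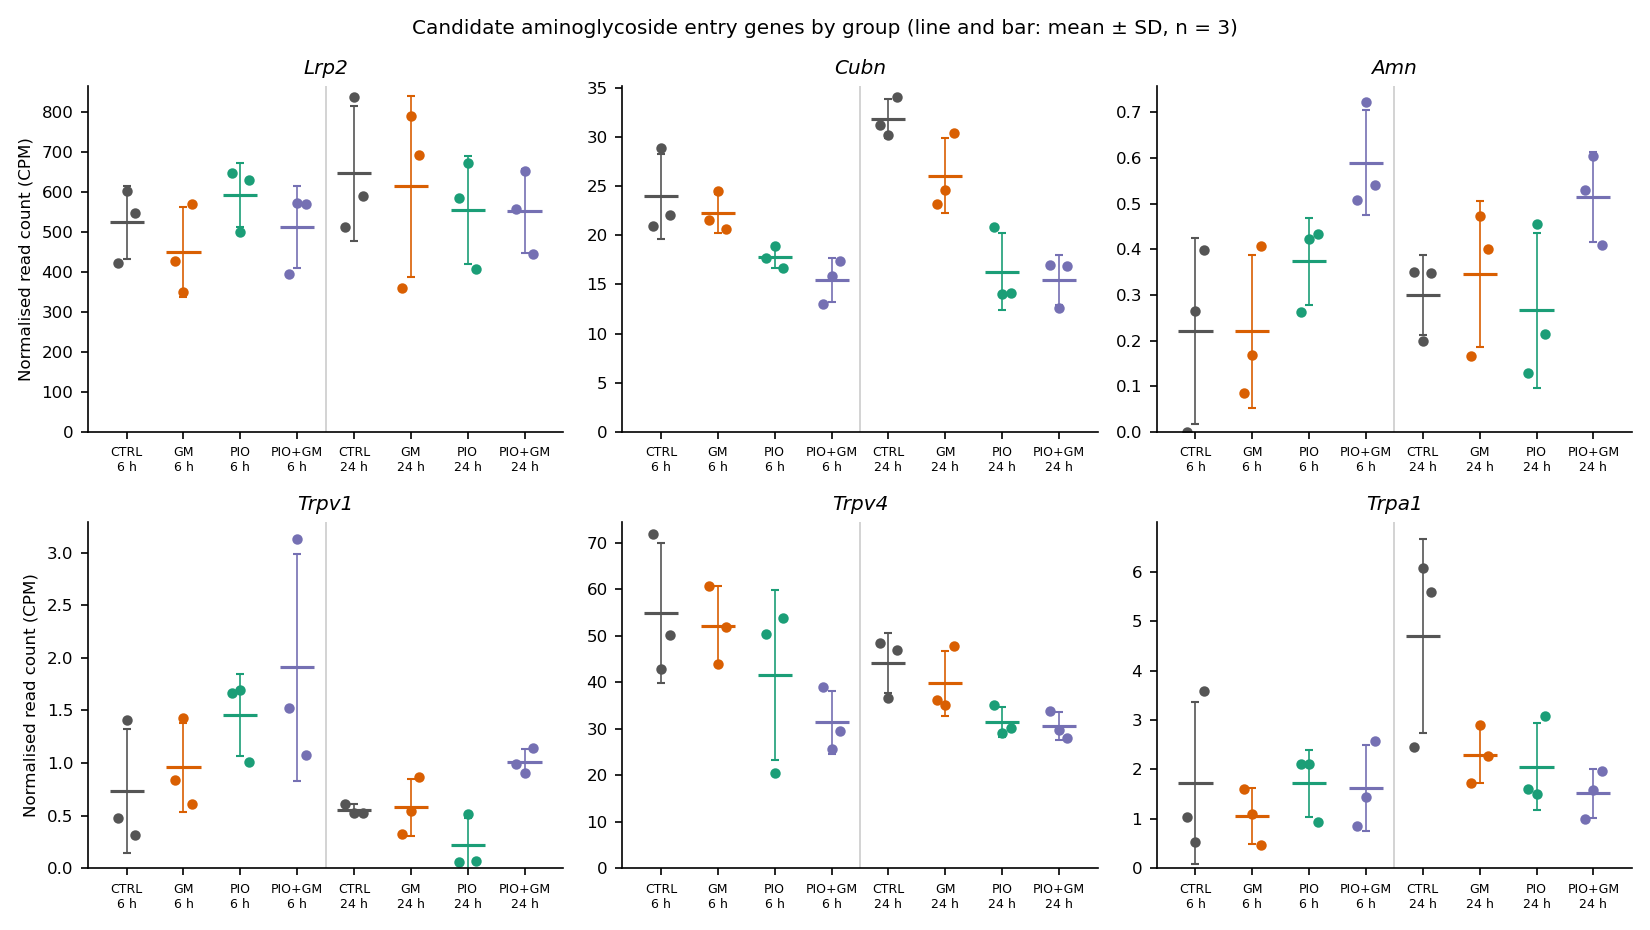
Normalised read counts (CPM, linear axes from 0) of the 6 genes in the 8 groups, 1 point per library, with a horizontal line at the mean and a bar of 1 SD (n = 3), cut at 0. Cubn is lower in both PIO groups than in CTRL at each time point with no overlap, Lrp2 overlaps between all groups of a time point, and Amn stays under 0.722 CPM.

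Gentamicin alone left the 5 tested members without a called difference. In the comparison of GM with CTRL, 0 of 5 passed edgeR's quasi-likelihood test at an adjusted p of 0.05 at 6 h and at 24 h, 0 had an unadjusted p under 0.05, and DESeq2 called 0. Over all 16317 genes, 0% were called at 6 h and 0.0123% at 24 h. The 95% intervals of the log2 fold change were narrow enough to bound the endocytic receptors: at 24 h they ran from -0.64 to 0.49 for Lrp2 and from -0.65 to 0.07 for Cubn. For the rare channels they were wide, from -1.21 to 1.38 for Trpv1 and from -2.16 to 0.10 for Trpa1.

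Cubn was the only member that edgeR's quasi-likelihood test called between drug groups with all 24 libraries in the fit on group means. At 24 h its normalised read count was 31.3, 30.2 and 34.1 CPM in the CTRL libraries, 23.1, 24.6 and 30.4 CPM in GM, 20.9, 14.0 and 14.1 CPM in PIO, and 17.0, 12.6 and 16.8 CPM in PIO+GM. All 6 libraries with pioglitazone were below all 6 without it. The share of all genes without overlap was not counted for any comparison, so that a lack of overlap has no background beside it. Relative to CTRL, Cubn in PIO fell by 0.97 in log2 units (SE 0.175, adjusted p = 0.0261, edgeR quasi-likelihood, n = 3 per group), from a mean of 31.9 ± 2.00 to 16.3 ± 3.95 CPM (SD). With PIO+GM it fell by 1.04 against CTRL (SE 0.176, adjusted p = 0.00861), to 15.5 ± 2.51 CPM. Cubn was thus 1 of 5 tested members called in each comparison, where 0.153% of all genes were called for PIO and 0.478% for PIO+GM. Both comparisons share the CTRL libraries.

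Against GM at 24 h, Cubn in PIO+GM did not pass the test, with a log2 fold change of -0.75 (SE 0.175, adjusted p = 0.112), although the libraries did not overlap. The same difference passed with DESeq2 (adjusted p = 0.0177) and with the likelihood ratio test of edgeR (adjusted p = 0.0256), which called 102 and 72 of all genes. No other member was called by edgeR's quasi-likelihood test in that comparison, where 0.11% of all genes passed. PIO+GM and PIO differed little in Cubn at 24 h, by -0.08 on the log2 scale with a 95% interval from -0.44 to 0.29. Without 1 library the value ran from -0.18 (without PIO replicate 2) to 0.14 (without PIO replicate 1), so that its direction was not stable. In this comparison 0 of 5 members passed, 1 (Trpv1) had an unadjusted p under 0.05, DESeq2 called 0, and 0.0735% of all genes were called. Over all 16317 genes 423 had an unadjusted p under 0.05, and DESeq2 called 35.

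The call of Cubn depended on single libraries. In the PIO comparison at 24 h it was lost without CTRL replicate 1 (adjusted p = 0.0878), CTRL replicate 3 (0.162), PIO replicate 2 (0.154) or PIO replicate 3 (0.196), with log2 fold changes from -1.18 to -0.86 over the 6 omissions. It was also lost in a fit of only the 6 libraries compared (adjusted p = 0.159) and with a covariate of olfactory and vomeronasal receptor counts, added after the data were seen (log2 fold change -0.92, adjusted p = 0.0574). In the PIO+GM comparison it was lost without CTRL replicate 3 (adjusted p = 0.0510) or PIO+GM replicate 2 (0.0693), with log2 fold changes from -1.11 to -0.91. With all libraries, both calls held with DESeq2 and with the likelihood ratio test. DESeq2 called 162 of all genes for PIO and 262 for PIO+GM, and the likelihood ratio test 148 and 225.

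At 6 h the order of the group means was the same. Cubn stood at 21.0, 28.9 and 22.0 CPM in CTRL, 21.5, 24.5 and 20.7 CPM in GM, 17.7, 18.9 and 16.7 CPM in PIO, and 13.0, 15.9 and 17.4 CPM in PIO+GM. Again no library with pioglitazone reached the lowest one without it. The log2 fold change was -0.43 for PIO against CTRL (SE 0.176, adjusted p = 0.258), -0.53 for PIO+GM against GM (SE 0.177, adjusted p = 0.0959) and -0.64 for PIO+GM against CTRL (SE 0.177, adjusted p = 0.0566). None passed edgeR's quasi-likelihood test in the fit on group means alone. Without 1 library these values ran from -0.52 to -0.28, from -0.62 to -0.41 and from -0.73 to -0.485, and none passed. PIO+GM against CTRL passed with DESeq2 (adjusted p = 0.0255) and with the likelihood ratio test (0.0353), which called 1186 and 788 of all genes. Both PIO+GM comparisons passed with a replicate block, as given at the end.

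Whether the effect of pioglitazone on Cubn differed between times or with gentamicin was tested directly. The difference of the PIO effect at 24 h minus that at 6 h was -0.53 (SE 0.247, 95% interval from -1.05 to -0.02, adjusted p = 0.898). The effect of pioglitazone with gentamicin minus that without it was 0.21 at 24 h, with an interval from -0.30 to 0.73. Without 1 library it ran from 0.11 (without PIO replicate 2) to 0.42 (without PIO replicate 1). Of the 5 tests of such differences, none called any gene (0%) with edgeR's quasi-likelihood test, and 125 to 714 genes had an unadjusted p under 0.05. The intervals are wide, so that equal effects were not shown.

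**Figure D2:**
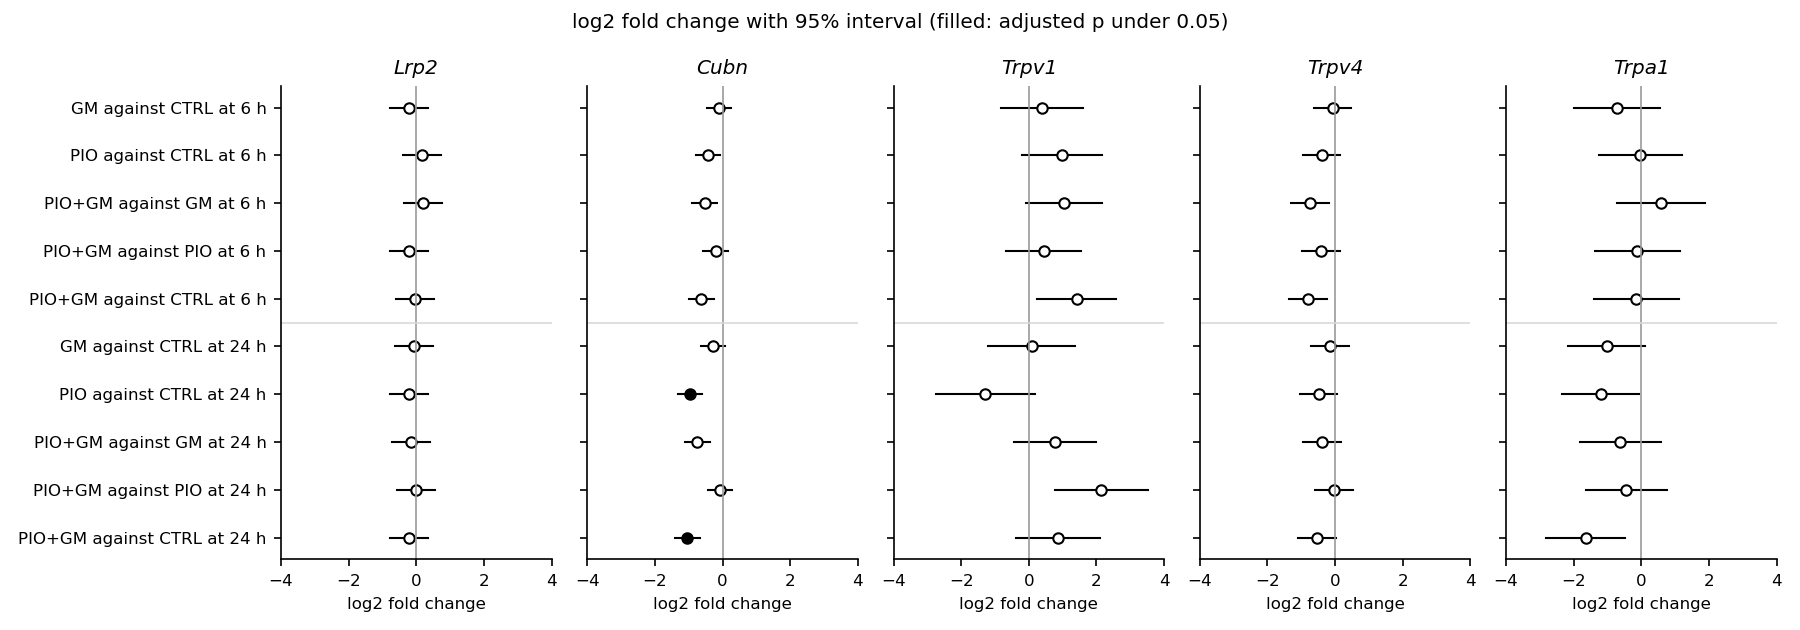
log2 fold changes of the 5 tested members in the 10 drug comparisons, with 95% intervals from the fit over all 24 libraries, on a linear axis, filled where the adjusted p was under 0.05. The filled points are Cubn for PIO and for PIO+GM against CTRL at 24 h, and the intervals of Trpv1 and Trpa1 are the widest.

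Other gene groups differed between the same libraries as Cubn. In a bulk sample, fewer cells of a type and less RNA per cell cannot be told apart. The summed level of 10 fibroblast and mesenchyme markers at 24 h was 6762 to 7422 CPM in CTRL, 6772 to 8013 CPM in GM, 4954 to 5376 CPM in PIO and 4696 to 6226 CPM in PIO+GM, so that the groups with and without pioglitazone did not overlap. All 10 were detected in every library and 0 were called for PIO against CTRL at 24 h by edgeR, with 3 at an unadjusted p under 0.05 and 0 called by DESeq2. Their median log2 fold change was -0.34, against -0.01 over all genes and -0.97 for Cubn. At 6 h the ranges of this sum overlapped, from 4058 to 6161 CPM in CTRL and from 3648 to 4941 CPM in PIO, and Pdgfra, a growth factor receptor of mesenchyme, was the only one of the 10 called by edgeR (log2 fold change -0.80, adjusted p = 0.0142). The part of these cells in the level of Cubn was not tested.

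Of 12 listed targets of PPAR-γ, 11 were tested and 3 were called higher and 0 lower for PIO against CTRL at 24 h, where 0.153% of all genes passed, with a median log2 fold change of 0.71. Among them Cpt1a, the mitochondrial carnitine palmitoyltransferase, rose by 1.12 (adjusted p = 0.000170) and Angptl4, an inhibitor of lipoprotein lipase, by 3.35 (adjusted p = 0.00176). The summed level of the 12 was 702 to 844 CPM in CTRL and 1511 to 1670 CPM in PIO at 24 h. At 6 h, where the sums overlapped, Cpt1a rose by 0.88 in PIO against CTRL (adjusted p = 0.00525), by 0.77 in PIO+GM against GM (0.00721) and by 0.83 in PIO+GM against CTRL (0.00265). Pdk4, a pyruvate dehydrogenase kinase, rose by 1.56 in PIO+GM against GM at 6 h (adjusted p = 0.0330). Plin4, a lipid droplet protein, fell by 2.19 in PIO+GM against GM (adjusted p = 0.0294) and fell by 2.43 against CTRL (0.00998) at 6 h.

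**Figure D3:**
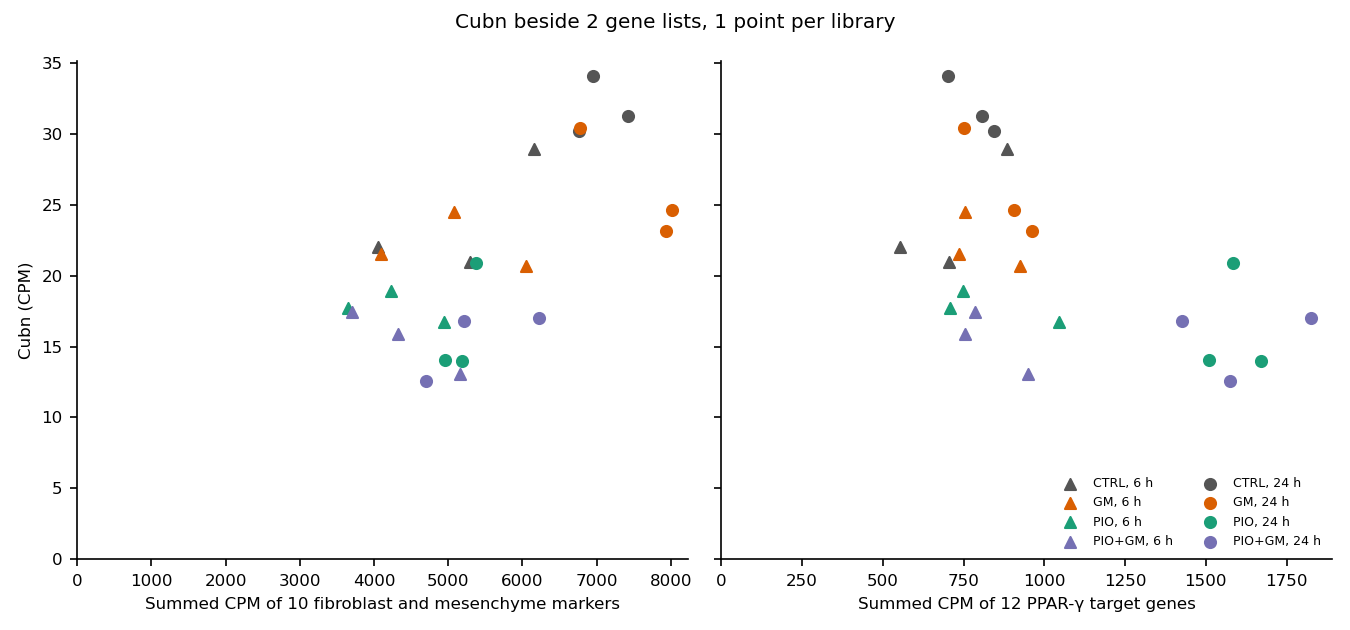
Cubn (CPM) in each of the 24 libraries against the summed CPM of 10 fibroblast and mesenchyme markers (left) and of 12 PPAR-γ target genes (right), all axes linear from 0, triangles for 6 h and circles for 24 h. The 24 h libraries with pioglitazone lie at 20.9 CPM or less of Cubn with target sums from 1427 to 1827 CPM, while the 6 h libraries with pioglitazone are low in Cubn at a target sum that overlaps with CTRL.

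Lrp2 showed no called difference between any groups. At 24 h it stood at 512, 837 and 590 CPM in CTRL, 359, 790 and 692 CPM in GM, 586, 671 and 408 CPM in PIO, and 557, 654 and 445 CPM in PIO+GM. The spread within a group was as wide as that between groups, and all groups overlapped. At 6 h the libraries ran from 350 CPM in GM replicate 2 to 648 CPM in PIO replicate 1. The log2 fold changes in the 10 drug comparisons lay between -0.23 and 0.19 with SEs of 0.269 to 0.270, and the 95% interval for PIO against CTRL at 24 h ran from -0.78 to 0.34. This interval, from the fit on group means, excludes a change of the size seen for Cubn. Alternatives other than leaving out 1 library gave values from -0.45 to -0.20, for which no interval is given. The difference between both genes was not tested.

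Amn, the partner that brings cubilin to the membrane, was near the floor. It had 0, 3 and 5 counts in CTRL at 6 h, 4, 3 and 4 in CTRL at 24 h, 6, 9 and 4 in PIO+GM at 6 h and 8, 8 and 5 in PIO+GM at 24 h. In 9 of the 24 libraries it had 3 counts or fewer. Summed over the 3 libraries, CTRL at 24 h gave 0.287 CPM (exact Poisson 95% interval 0.144 to 0.514) and PIO+GM at 24 h 0.521 CPM (0.322 to 0.796). Both PIO+GM groups were above CTRL with no overlap, but the ratio of the sums at 24 h was 1.81 with a counting interval of 0.835 to 4.16, so that no difference was detectable at this depth. At 6 h the ratio was 2.77, with an interval from 1.16 to 7.31 that leaves out the spread between libraries. In the fit without a filter on low counts, which tested Amn over 24227 genes, its log2 fold change for PIO+GM against CTRL was 1.38 at 6 h (SE 0.676, adjusted p = 0.314) and 0.80 at 24 h (SE 0.639, adjusted p = 0.887), and neither passed.

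The wider endocytic machinery was present. No partner was called in a drug comparison by edgeR, although 9 had an unadjusted p under 0.05 and DESeq2 called 4 for PIO+GM against GM at 6 h, where 4087 of all 16317 genes had such a p and DESeq2 called 1216. For PIO+GM against CTRL at 6 h the partners gave 8 and 2, and all genes 3851 and 1186. Of 24 partners of megalin and cubilin, all were tested and 0 were called for PIO or PIO+GM against CTRL at 24 h, with 1 at an unadjusted p under 0.05 in each and 0 called by DESeq2. Their median log2 fold change for PIO was 0.05, against -0.01 over all genes. Clathrin heavy chain Cltc had the highest level of the partners, 172 ± 20.6 RPKM (SD, n = 24), followed by the light chain Clta with 80.1 ± 6.99 RPKM. Lrpap1, the chaperone of megalin, stood at 54.6 ± 10.9 RPKM, the scaffold Gipc1 at 30.5 ± 6.75 RPKM and the adaptor Dab2 at 12.2 ± 4.10 RPKM. Their log2 fold changes for PIO against CTRL at 24 h were 0.10 for Lrpap1 (adjusted p = 0.896), 0.24 for Gipc1 (0.809) and -0.49 for Dab2 (0.619).

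Among 14 members of the LDL receptor family, Lrp2 ranked 4th by mean RPKM. Lrp1 was highest with 130 ± 53.9 RPKM, then Lrp6 with 48.8 ± 6.59 RPKM and Lrp10 with 36.9 ± 9.18 RPKM. The ranges over libraries of Lrp10, Lrp2 and Lrp5 (27.1 ± 9.31 RPKM) overlapped, and their order was not tested. Of the 13 relatives, Lrp8, a reelin receptor, was the only one that edgeR's quasi-likelihood test called in a drug comparison, with a log2 fold change of -1.06 for PIO+GM against CTRL at 24 h (SE 0.196, adjusted p = 0.0158). DESeq2 called 1 relative there and 262 of all 16317 genes. It called 2 relatives for PIO+GM against GM at 6 h, 1 for PIO+GM against CTRL at 6 h and 1 for GM against CTRL at 24 h, beside 1216, 1186 and 15 of all genes. Of 21 listed ligands 16 were tested, and 0 were called for PIO against CTRL at 24 h (1 at an unadjusted p under 0.05, 0 by DESeq2). Clusterin (Clu) had the highest level of them, 1245 ± 237 RPKM.

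Trpv4, a channel gated by osmotic stretch and the most abundant of the 3 TRP members, did not pass edgeR's quasi-likelihood test in the fit on group means alone, and passed in some alternatives at 6 h. There it stood at 71.8, 42.8 and 50.3 CPM in CTRL, 60.8, 43.9 and 51.9 CPM in GM, 50.4, 20.5 and 53.8 CPM in PIO, and 38.9, 25.7 and 29.6 CPM in PIO+GM. The PIO+GM libraries lay below all CTRL and GM libraries, and PIO replicate 2 was the lowest of all. The log2 fold change of PIO+GM was -0.81 against CTRL (SE 0.268, adjusted p = 0.0929) and -0.73 against GM (SE 0.268, adjusted p = 0.116). Both passed when PIO+GM replicate 1 was left out (adjusted p = 0.0284 and 0.0357), a setting in which 3598 and 4040 of 16613 genes passed, against 431 and 216 with all libraries. At 24 h Trpv4 was 48.6, 36.7 and 47.0 CPM in CTRL, 36.3, 35.2 and 47.9 CPM in GM, 35.1, 29.1 and 30.2 CPM in PIO, and 33.9, 29.8 and 28.025 CPM in PIO+GM. As for Cubn, all 6 libraries with pioglitazone were below all 6 without it, here with a narrow gap between the highest PIO and the lowest GM library. The share of all genes that separated in this way was not counted. The log2 fold change was -0.49 for PIO against CTRL with an interval from -1.04 to 0.07 (adjusted p = 0.569), -0.53 for PIO+GM against CTRL (adjusted p = 0.600) and -0.38 for PIO+GM against GM (adjusted p = 0.825), and none passed.

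At 6 h the shares of all genes called were 0.337% for PIO against CTRL, 1.32% for PIO+GM against GM, 0% for PIO+GM against PIO and 2.64% for PIO+GM against CTRL. In these 4 comparisons edgeR's quasi-likelihood test called 0 of 5 members, 1, 2, 0 and 3 of them had an unadjusted p under 0.05, and DESeq2 called 0, 0, 0 and 1. Over all 16317 genes 2478, 4087, 500 and 3851 had such a p, and DESeq2 called 341, 1216, 1 and 1186.

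Trpv1, the capsaicin receptor of sensory neurons, was close to the floor in several libraries. At 6 h it had 6, 16 and 4 counts in CTRL, 10, 17 and 9 in GM, 19, 16 and 14 in PIO, and 18, 39 and 8 in PIO+GM. At 24 h it had 7, 8 and 6 counts in CTRL, 4, 8 and 13 in GM, 1, 8 and 1 in PIO, and 15, 12 and 14 in PIO+GM. The PIO libraries at 24 h were below those at 6 h, with 10 counts in all against 49. The fitted log2 fold change of 24 h against 6 h in PIO was -2.65 (SE 0.644, adjusted p = 0.00526), and the ratio of the summed levels was 0.156 with a counting interval of 0.0706 to 0.313. It was the 1 of 5 members called between the times in PIO, where 29% of all genes were called, so that the count is near the background. Without PIO replicate 2 at 24 h, the one library of that group above 3 counts, the fitted value was -4.22. In a fit of only the 6 libraries compared the call was lost (adjusted p = 0.0511).

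The same libraries differed in another set of genes. Olfactory and vomeronasal receptor genes, which OCs are not known to use, summed to 91.0 to 211 CPM in PIO at 6 h and 39.6 to 76.0 CPM in PIO at 24 h. Over the 24 libraries their log2 sum and Trpv1 had a Pearson r of 0.47 and a Spearman rho of 0.56, as a description of libraries that share groups. Lrp2 had a relation of like size and opposite sign to the same sum (r = -0.51, rho = -0.52), and for the other 4 members r lay between -0.05 and 0.02. With this sum as a covariate, an alternative added after the data were seen, the fold change of Trpv1 was -2.72 (adjusted p = 0.0232). For PIO+GM against PIO at 24 h the log2 fold change of Trpv1 was 2.15 (SE 0.653, adjusted p = 0.658), and it did not pass, although the PIO+GM libraries lay above those of the other 3 groups at 24 h. Without 1 library the value ran from 1.71 (without PIO replicate 1) to 3.72 (without PIO replicate 2), and it passed in none of these 6 omissions.

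Trpa1, a channel for irritants, varied most in CTRL. It had 13, 6 and 45 counts in CTRL at 6 h and 28, 92 and 64 in CTRL at 24 h, where GM had 21, 43 and 34, PIO 25, 23 and 43, and PIO+GM 15, 21 and 24. The PIO+GM libraries were below all CTRL libraries at 24 h. The log2 fold change was -1.64 for PIO+GM against CTRL (SE 0.563, adjusted p = 0.266) and -1.20 for PIO (SE 0.546, adjusted p = 0.470), and neither passed. The sum of 16 hair cell markers at 24 h was 419 to 588 CPM in CTRL, 284 to 365 CPM in GM, 246 to 469 CPM in PIO and 186 to 324 CPM in PIO+GM. It was lower in GM and PIO+GM than in CTRL without overlap, while PIO and CTRL overlapped. Of the 16 markers edgeR called 0 in any drug comparison. At most 8 had an unadjusted p under 0.05, for PIO+GM against CTRL at 24 h, where 1476 of all 16317 genes had one. DESeq2 called at most 3, for PIO+GM against GM at 6 h, where it called 1216 of all genes. The part of the hair cells in the level of Trpa1 was not tested.

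Between 6 and 24 h, many genes were called but, beside Trpv1 in PIO, no member. In CTRL 28% of all genes were called, in GM 24.2% and in PIO+GM 34.6%, and 0 of 5 members were called in each by edgeR's quasi-likelihood test, with 2, 0 and 0 at an unadjusted p under 0.05. DESeq2 called 1, 0 and 0. Over all 16317 genes 6367, 6075 and 7427 had an unadjusted p under 0.05, and DESeq2 called 5012, 4599 and 6179. The 2 members with such a p in CTRL were Cubn, with a log2 fold change of 0.41 (SE 0.174, adjusted p = 0.0840), and Trpa1, with 1.44 (SE 0.559, adjusted p = 0.0607). For Trpa1 the value was 2.56 without CTRL replicate 3 at 6 h (adjusted p = 0.00468) and 1.75 without CTRL replicate 1 at 24 h (0.0413), and without each of the other 4 libraries it did not pass, down to 1.02 without CTRL replicate 2 at 6 h (0.240). Cubn passed without CTRL replicate 2 at 6 h, with 0.57 (adjusted p = 0.0450), and did not pass without any of the other 5, down to 0.33 without CTRL replicate 1 at 6 h (0.245).

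Between the times in CTRL 5 of the 24 megalin and cubilin partners rose and 2 fell, a share near the 28% of all genes called. Eea1, an early endosome tether, fell by 0.97 (adjusted p = 0.000439) and the clathrin light chain Cltb fell by 1.43 (0.000565), while Myo6, an endocytic motor, rose by 0.76 (0.00603). Lrpap1 rose by 0.49 in CTRL (adjusted p = 0.0196) and by 0.71 in GM (0.00194).

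Of 25 other TRP channels 21 were tested, and Trpm3 had the highest level with 93.8 ± 26.1 RPKM, then Pkd2 with 38.1 ± 3.95 RPKM and Trpm7 with 37.4 ± 5.27 RPKM. Among all 28, Trpv4 ranked 6th, Trpa1 17th and Trpv1 21st. The range of Trpv4 over libraries overlapped with those of Mcoln1 (14.2 ± 3.18 RPKM) and Trpm4 (10.4 ± 2.98 RPKM), and their order was not tested. In the drug comparisons edgeR's quasi-likelihood test called Trpc6 alone, with a log2 fold change of -1.27 for PIO+GM against CTRL at 24 h (SE 0.277, adjusted p = 0.0426). Between the times in CTRL, 4 of the 21 rose and 2 fell, again a share near the 28% of all genes, with Trpc2 higher by 1.16 (adjusted p = 0.00685), Trpm6 lower by a log2 change of -1.54 (0.0100) and Mcoln1 higher by 0.53 (0.0128).

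**Figure D4:**
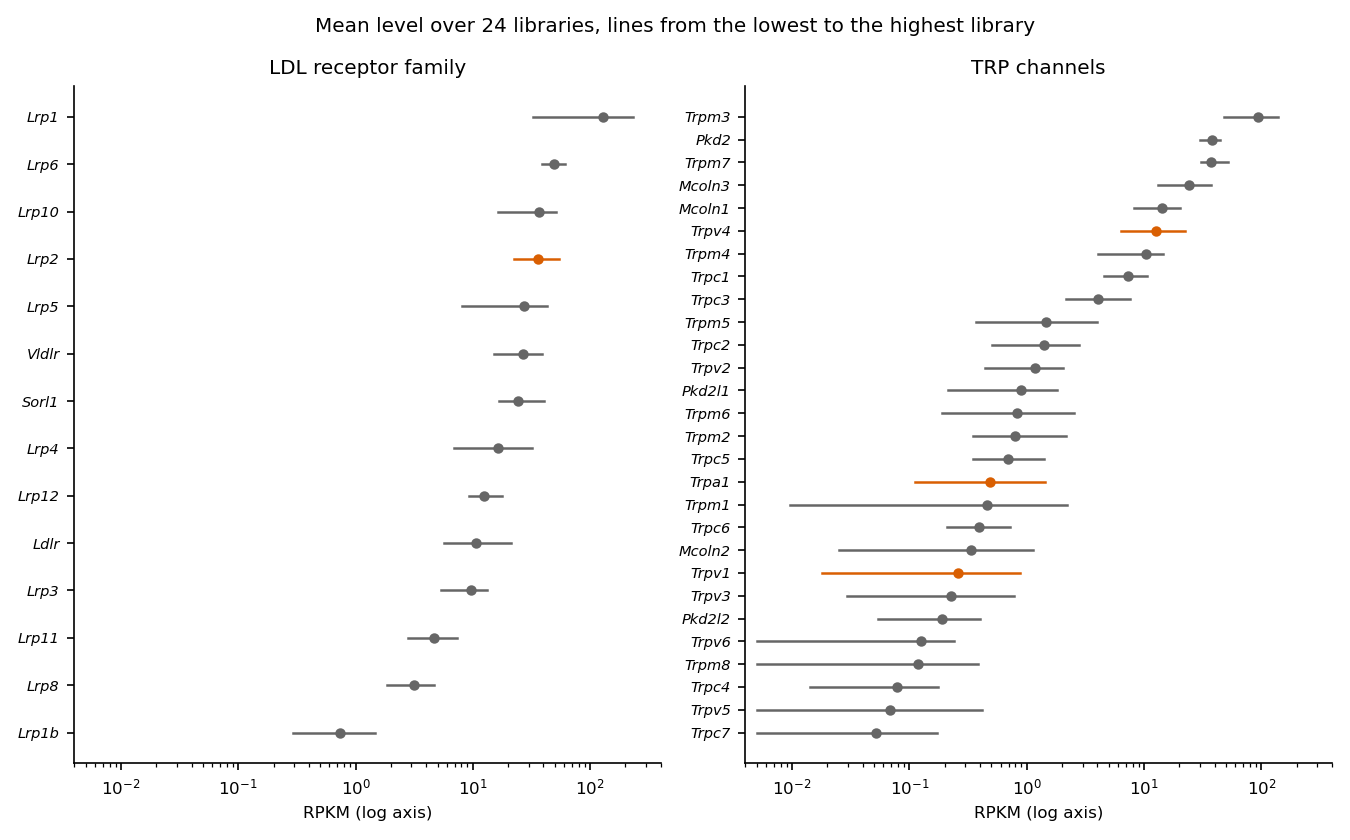
Mean RPKM over 24 libraries (log axis) of 14 LDL receptor family members (left) and 28 TRP channels (right), with lines from the lowest to the highest library, drawn from 0.005 where the lowest is 0, and the members in orange. Lrp2 is 4th of its family, Trpv4 6th of the channels, and Trpa1 and Trpv1 reach at most 1.42 and 0.872 RPKM in any library.

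The mechanotransduction complex, the other proposed entry, had 9 of its 10 listed genes tested, led by Cib2 with 28.8 ± 8.32 RPKM, Lhfpl5 with 6.41 ± 2.77 RPKM and Tomt with 4.15 ± 1.78 RPKM. None was called in a drug comparison by edgeR. For PIO+GM against CTRL at 24 h 5 of the 9 had an unadjusted p under 0.05 and DESeq2 called 1. Over all 16317 genes 1476 had such a p and DESeq2 called 262. The median log2 fold change was -0.97 for the mechanotransduction genes, -0.94 for the hair cell markers and -0.0005 over all genes. Of 15 other candidate routes (connexins, purinergic receptors and other channels) 13 were tested and 0 called in any drug comparison by edgeR. At most 2 had an unadjusted p under 0.05, for PIO against CTRL at 6 h, where 2478 of all genes had one. DESeq2 called at most 1, for PIO+GM against GM at 6 h, where it called 1216 of all genes. Gjb2, the main cochlear connexin, was the highest with 215 ± 77.1 RPKM.

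The tissue label was checked against markers. Hair cell Myo7a had 292 to 1437 counts and Pou4f3 29 to 317, and supporting cell Sox2 261 to 1243. The 13 markers of marginal cells and Reissner's membrane, the cells in which megalin is best known, summed to 315 to 407 CPM in CTRL and 285 to 360 CPM in PIO at 24 h. Of 7 kidney tubule markers, 6 (Slc34a1, Slc5a12, Slc22a6, Slc22a8, Umod and Kap) had at most 23 counts in any library, and Aqp1, which other tissues also express, had 558 to 4293. At 6 h edgeR called Aqp1 lower for PIO+GM, with a log2 fold change of -1.40 against GM (adjusted p = 0.0393) and -1.29 against CTRL (0.0401). Of all genes 1.32% and 2.64% were called there. For PIO against CTRL at 24 h, 0 genes were called in the lists of supporting cell, both strial, Schwann cell, macrophage and endothelial markers, with 0 to 2 per list at an unadjusted p under 0.05, and DESeq2 called 1, in the strial intermediate and basal list. Of 13 tested sensory neuron markers 1 was called, Gap43, a growth cone protein, which fell by 1.27 (adjusted p = 0.0292). For PIO+GM against CTRL at 24 h, Gap43 fell by 1.05 (adjusted p = 0.0480) and Kcnj13, a potassium channel in the strial intermediate and basal list, fell by 2.07 (adjusted p = 0.0110), while 0 genes of the other 5 lists were called by edgeR, with 0 to 1 per list at an unadjusted p under 0.05 and 2 in all called by DESeq2. Kcnj13 also fell by 1.98 against PIO (adjusted p = 0.0315).

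The genes whose log2 CPM followed each member most closely over the 24 libraries were listed as a description, without a test, since the libraries share groups and depth. For Cubn they were Unc13c (Pearson r = 0.87), Prex2 (0.84), Postn (0.84), St6galnac2 (0.84) and Dgki (0.83), and without the pair of libraries farthest from the median r was 0.78 to 0.83. For Lrp2 they were Ccdc3 (0.80), Lmx1a (0.76), Macf1 (0.76), Hgf (0.74) and Mcm5 (0.74). For Trpv4 they included Zbtb7b (0.89), Foxo6 (0.87), Ergic1 (0.86) and Gtf2ird1 (0.86).

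For Trpa1 they included Rnf180 (0.83), Pkd2l1 (0.83), Armc4 (0.82) and Myo3b (0.82), and for Trpv1 they were Ttn (0.89), Itgax (0.89), Scn4a (0.88), Dnah17 (0.83) and Myo18b (0.82). No member was among the 5 of another. Between the 5 members tested, Amn left out, r ran from -0.33 for Trpv1 with Trpa1 to 0.43 for Cubn with Trpv4, and Lrp2 and Cubn, whose products act together, had an r of 0.18.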

How the data were processed

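RNA sequencing of 24 libraries was analysed. The authors deposited counts of reads per gene, not normalised or filtered, from STAR alignment on mm10 per the labels. Per the study's methods, reads starting in any RefSeq exon of a gene were counted with QuasR. Whether strand was used and how reads with several matches were treated are not given in the sources used here. Of 24454 Entrez identifiers 24374 were matched to symbols. Counts were tested in R 4.3.3 with edgeR 4.0.16 (TMM, filterByExpr, quasi-likelihood F-test, one mean per group over all 24 libraries, limma 3.58.1) and with DESeq2 1.42.0 as an alternative. The 16317 genes kept were adjusted together by Benjamini-Hochberg, with a threshold of 0.05. Standard errors came from the F statistic, and intervals from its degrees of freedom. CPM and RPKM used TMM factors and the authors' deposited gene lengths, and log2 CPM a prior count of 2. Tables were made in Python 3.11 (scipy 1.17.1, numpy 2.4.6, pandas 2.3.3) and figures with matplotlib 3.10.9.

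The members and lists were chosen with earlier results of these data known. The lists hold megalin and cubilin partners, LDL receptor relatives, ligands, other TRP channels, mechanotransduction genes, other candidate routes, PPAR-γ targets and cell type markers. Named were all members, up to 3 called genes per list and comparison and the 3 of highest RPKM per list, always Lrpap1, Dab2 and Gipc1, and the 5 genes most correlated with each member. A few genes that this rule names are not reported here. The procedure was tested on simulated data. Alternatives were library sizes without TMM, DESeq2 size factors, no filter, at least 10 counts in every library, the likelihood ratio test, DESeq2, a replicate block, fits on 12 or 6 libraries, leaving out each library, a prior count of 0.5, log2 RPKM and, chosen after seeing the data, a covariate of olfactory and vomeronasal receptor counts.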

Additional observations from a re-analysis of the deposited data

How the results depend on the processing

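In the 3 comparisons with a member called, 36 of 47 alternatives gave the same count, and in the 16 without one 257 of 273 also gave 0. With edgeR's likelihood ratio test and with DESeq2, 1 member was called for PIO+GM against CTRL at 6 h, for PIO+GM against GM at 24 h and for 24 h against 6 h in CTRL, in place of 0. With the replicate block, 2 members (Cubn and Trpv4) were called for PIO+GM against GM and against CTRL at 6 h, and 1 for PIO+GM against GM at 24 h and for 24 h against 6 h in CTRL. Cubn had adjusted p-values of 0.0403 and 0.0243 and Trpv4 of 0.0231 and 0.0198 there, and Cubn of 0.0348 for PIO+GM against GM at 24 h. Under this replicate block 1990 genes in place of 216 passed for PIO+GM against GM at 6 h. Deviations from the group means correlated above 0.1 in 9 of 18 same-numbered pairs at 6 h (mean r = 0.11) and 15 of 18 at 24 h (mean r = 0.38). The mean of -0.18 for other pairs at 24 h is no separate contrast, because the deviations within a group sum to 0. Since not every same-numbered pair was above 0.1 and the labels do not say what the numbers mark, the libraries were not treated as paired. With only the 6 libraries compared, 0 members were called for PIO against CTRL at 24 h and for 24 h against 6 h in PIO. A minimum of 10 counts in every library also gave 0 for the latter, because Trpv1 was then not tested. The covariate gave 0 for PIO against CTRL at 24 h and 1 for 24 h against 6 h in CTRL. Leaving out 1 library gave 0 to 1 members for PIO+GM against GM and against CTRL at 6 h, PIO and PIO+GM against CTRL at 24 h and the times in CTRL, and 1 to 2 for the times in PIO. Where no reason is given, the cause was not tested.

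The count for single members covered GM against CTRL at both times, PIO against CTRL at 24 h and each comparison with an unadjusted p under 0.05. Other comparisons, such as Cubn for PIO+GM against PIO at 24 h, were left out of it. Among the values covered 466 kept their side of the threshold and direction, 18 newly passed, 9 no longer passed and 9 turned direction. The 9 that turned were effects that had not passed the test, each with 1 library left out, and over such omissions the log2 fold changes ran as follows. For GM at 6 h they were -0.19 to 0.048 for Cubn (positive without CTRL replicate 2), -0.011 to 1.23 for Trpv1 (negative without GM replicate 2), -0.22 to 0.18 for Trpv4 (positive without CTRL replicate 1, and 0.037 without GM replicate 2) and -1.15 to 0.39 for Trpa1 (positive without CTRL replicate 3). For GM at 24 h they were -0.30 to 0.20 for Lrp2 (positive without GM replicate 1, and 0.17 without CTRL replicate 2) and -0.32 to 0.34 for Trpv1 (negative without GM replicate 3). For PIO at 24 h they were -0.38 to 0.017 for Lrp2 (positive without CTRL replicate 2). Depth limits Amn, Trpv1 and Trpa1 most, at medians of 4, 9.5 and 21 counts per library.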
